A study of Mus musculus with 12 samples.

Results

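The genes described here are the receptor chains and Janus kinases through which T cells receive the cytokines of the IL-6, IL-10, and IL-12 families. They were chosen by name, as the rows of the counts table for Il6ra, Il6st, Il27ra, Il10ra, Il10rb, Il12rb1, Il12rb2, Jak1, Jak2, and Tyk2, which makes 10 genes of 25078 listed. All 10 had enough reads to be tested in CD4 and in CD8 T cells. RNA-Seq was done on donor T cells taken from the liver of irradiated WT BALB/c mice 6 days after allogeneic hematopoietic cell transplantation (HCT). All recipients received T cell-depleted bone marrow from WT C57BL/6 mice together with T cells from C57BL/6 donors of 3 genotypes. The WT donors carried neither deletion, STAT3ko donors lacked Stat3 in T cells through CD4-Cre and a floxed Stat3 allele, and STAT3ko PD-1ko donors lacked Pdcd1, the PD-1 gene, in addition. CD4-Cre is active in the thymus before the subsets part, so that both CD4 and CD8 T cells carry the Stat3 deletion. No group lacked PD-1 alone, and none held T cells from a syngeneic recipient, so the comparisons cover PD-1 loss only on the STAT3ko background and in an allogeneic host. Donor cells were sorted as H-2Kb+ TCRβ+ CD4+ or CD8+ cells, and each library was made from cells of 3 recipients combined. There were 12 libraries, 2 for each genotype in each subset, and the age of the mice was not given in the sources used here.

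Cytokine receptors of this kind have no enzymatic activity of their own. The signaling chains hold Janus kinases on their cytoplasmic tails, whereas the chain encoded by Il6ra binds IL-6 and signals through gp130. When a cytokine joins signaling chains the kinases phosphorylate each other, the receptor, and then STAT proteins, which enter the nucleus as transcription factors. STAT3, the protein removed in the STAT3ko donors, is the main STAT activated by IL-6 and IL-10, whereas IL-12 acts through STAT4. In CD4 T cells these cytokines bear on the choice between Th17, follicular helper, Th1, and IL-10-producing fates, and in CD8 T cells on effector differentiation.

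The promoters of 6 of the 10 genes (Il6ra, Il6st, Il12rb2, Jak1, Jak2, and Tyk2) were found in the RefSeq promoter table of build GRCm38.p6. The windows of Il12rb2 and Jak1 are shown because these are the members with an entry that differed between STAT3ko PD-1ko and WT T cells. Each window holds 300 bases on the strand of the gene, from upstream to 50 bases past the start site in the RefSeq table, which for Jak1 lies inside the gene model of the counts table. In the window of Il12rb2 (chr6:67376139-67376438, minus strand) the capitals mark a match to TTCNNNGAA, the core sequence bound by STAT proteins, and in that of Jak1 (chr4:101265174-101265473, minus strand) they mark TGACGTCA, the element bound by CREB and ATF factors.
Il12rb2: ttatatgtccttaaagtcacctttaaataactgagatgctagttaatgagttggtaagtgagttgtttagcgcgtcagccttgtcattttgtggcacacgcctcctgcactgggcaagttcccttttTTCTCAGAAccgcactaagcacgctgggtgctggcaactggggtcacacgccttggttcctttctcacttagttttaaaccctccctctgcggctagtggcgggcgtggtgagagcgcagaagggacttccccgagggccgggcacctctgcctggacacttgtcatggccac
Jak1: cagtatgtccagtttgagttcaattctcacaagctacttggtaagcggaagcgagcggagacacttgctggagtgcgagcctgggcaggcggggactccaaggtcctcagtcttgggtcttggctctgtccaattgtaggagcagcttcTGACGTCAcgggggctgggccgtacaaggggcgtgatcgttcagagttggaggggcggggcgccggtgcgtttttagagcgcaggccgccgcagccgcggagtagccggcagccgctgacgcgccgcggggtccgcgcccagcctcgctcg
The Il12rb2 match begins 123 bases and the Jak1 match 101 bases before the start site in that table. Both motifs read the same on the 2 strands and do not overlap with each other. TTCNNNGAA was present in 8.30% and TGACGTCA in 1.79% of 32851 promoter windows of this length, and the windows of Il6ra, Il6st, Jak2, and Tyk2 held neither. The motifs were chosen with these sequences in view, and a match describes letters, not binding.

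The libraries held 21676125 to 24551477 counts on genes, with a median of 22815166 in CD4 and 23822194.5 in CD8 T cells. Levels are TMM-scaled CPM, counts set to a common library size, and levels of different genes are compared only per kilobase of exon. A gene was called different at an adjusted p under 0.05 in edgeR's quasi-likelihood test, with adjustment over all 11959 genes tested in CD4, 12002 in CD8, or 12334 in both subsets together. A log2 fold change is given with its standard error (SE). Exact permutation of 2 libraries against 2 has 0.333 as its smallest 2-sided p, and was therefore not used for single genes. The replicates are pools of mice. The study's legend for its liver data, RNA-Seq among them, speaks of at least 2 replicate experiments combined. Replicate 1 and replicate 2 libraries also carry separate runs of sample numbers in their titles. The labels do not say whether the replicate number marks separate transplant experiments. In RNA from sorted populations, fewer cells of one kind and less RNA per cell cannot be told apart.

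The targeted genes were examined first. Stat3 measured 368 and 467 CPM in WT CD4 T cells, 139.8 and 164 in STAT3ko, and 157 and 219 in STAT3ko PD-1ko. Stat3 in CD8 T cells measured 397 and 384 CPM in WT, 149 and 135 in STAT3ko, and 154 and 235 in STAT3ko PD-1ko. All 8 libraries from donors with the deletion lay below the WT libraries of the same subset. The log2 fold change of Stat3 in STAT3ko against WT was -1.46 in CD4 (SE 0.22, adjusted p = 0.0550) and -1.46 in CD8 T cells (SE 0.20, adjusted p = 0.108), neither past the threshold, and in STAT3ko PD-1ko against WT it fell by 1.13 in CD4 (SE 0.22, adjusted p = 0.0180) and fell by 1.00 in CD8 T cells (SE 0.20, adjusted p = 0.0177). Counts over the whole gene include exons outside the floxed part. Pdcd1 measured 247 and 235 CPM in WT CD4 T cells and 55.1 and 26.0 in STAT3ko PD-1ko CD4 T cells, and 376 and 307 against 93.5 and 65.5 in CD8 T cells. It fell by 2.55 on the log2 scale in CD4 (SE 0.33, adjusted p = 0.00566) and fell by 2.09 in CD8 T cells (SE 0.19, adjusted p = 0.00243). The sort markers followed the labels. Cd4 averaged 1.09 CPM in the CD8 libraries, and Cd8a averaged 1.74 CPM in the CD4 libraries.

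Of the 10 genes, Il27ra and Jak1 were lower in STAT3ko PD-1ko than in both WT and STAT3ko T cells, in CD4 and in CD8 T cells alike. Il12rb2, the signaling chain of the IL-12 receptor, was higher in STAT3ko PD-1ko than in WT CD8 T cells, and Il10rb, the shared chain of the IL-10 receptor family, was lower than in STAT3ko CD8 T cells. Neither of these 2 calls held in every fit with 1 library left out, and that of Il12rb2 held in none. Between STAT3ko and WT T cells no member was called in either subset, and neither was Stat3, the deleted gene. Only 0.334% of all genes in CD4 and 0.0583% in CD8 T cells were called there. Between subsets, 6 members were lower and 1 was higher in CD8 than in CD4 T cells, with Il6ra the most unequal. Of all genes tested there, 12.6% were lower and 12.9% higher. The plot of CPM by library shows the values behind these calls.

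**Figure D1:**
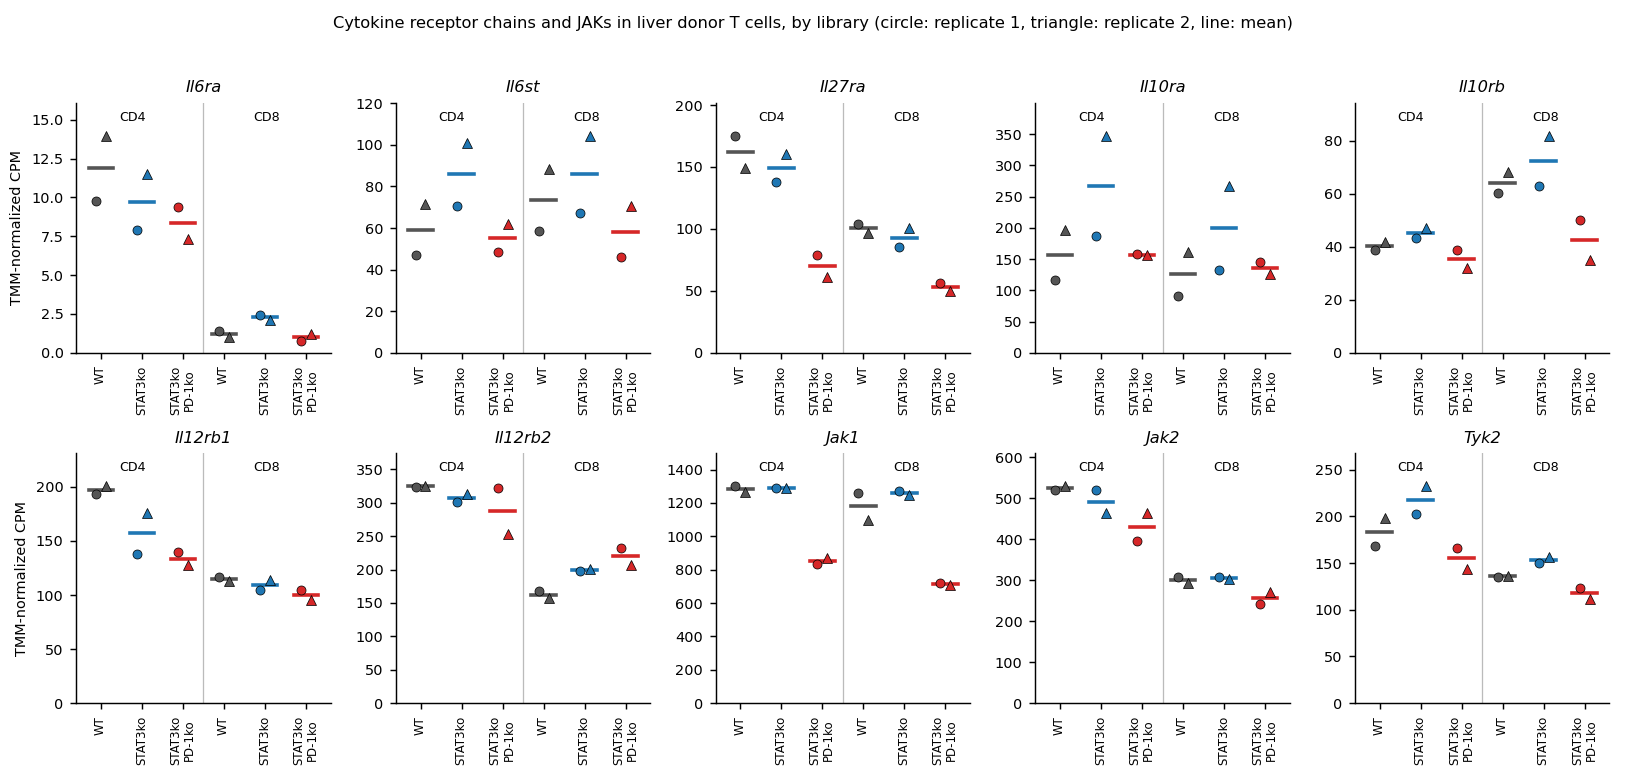
Level of each of the 10 genes in every library, in TMM-normalized CPM on the y axis, with 1 panel a gene, the 6 groups on the x axis, circles for replicate 1, triangles for replicate 2, and a line at the group mean. Il27ra and Jak1 have their lowest libraries in STAT3ko PD-1ko in both subsets, and Il6ra sits at 7.34 CPM or more in CD4 and at 2.46 CPM or less in CD8 T cells.

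Per kilobase of exon, Jak1 was the most abundant member, at 206.8 CPM per kb (SD 45.5 over 12 libraries), and Il6ra the least, at 1.70 (SD 1.41). Between them came Il12rb2 at 80.9 CPM per kb, Jak2 at 76.0, Il10ra at 49.7, Il12rb1 at 47.1, Il27ra at 39.4, Tyk2 at 32.9, Il10rb at 27.0, and Il6st at 12.8. Of neighbours in this order, Jak1 and Il12rb2 did not overlap over the 12 libraries, nor did Il6st and Il6ra, and the other neighbours did overlap. The order was not the same in the 2 subsets. Il10rb stood eighth in CD4 T cells at 21.7 CPM per kb and sixth in CD8 T cells at 32.3, above Il27ra at 31.0 and Tyk2 at 27.8. Across the 6 group means, Il6ra spanned the widest range at 3.58 on the log2 scale, Il27ra spanned 1.60, Jak1 spanned 0.85, and Il6st the narrowest at 0.625.

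**Figure D2:**
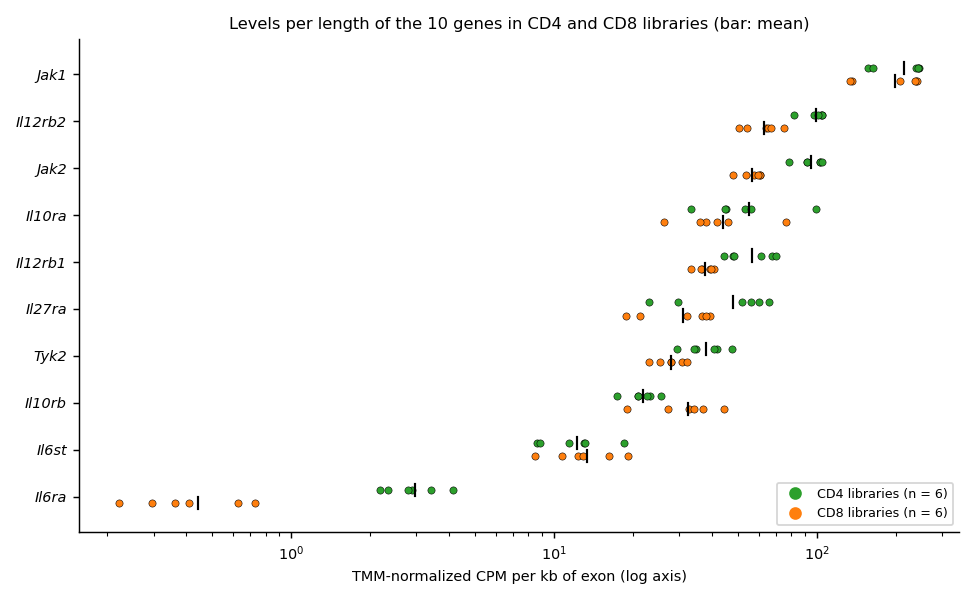
Level per kilobase of exon of each gene, in CPM per kb on a log axis, with a point for each of 6 CD4 (green) and 6 CD8 (orange) libraries and a bar at the mean of each subset. Jak1 is highest, with means of 215.3 in CD4 and 198.4 in CD8 T cells, and Il6ra lowest, with means of 2.96 and 0.441.

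The chains of the IL-6 family are described first. Il6ra (chr3:89869324-89913196, minus strand, mm10) encodes the chain that binds IL-6 itself, and Il6st (chr13:112464070-112506860, plus strand) encodes gp130, the signal-transducing chain shared by IL-6, IL-11, LIF, and IL-27. Il6ra measured 9.77 and 14.0 CPM in WT CD4 T cells, 7.91 and 11.5 in STAT3ko, and 9.39 and 7.34 in STAT3ko PD-1ko. Its CD8 values were 1.38 and 0.998 CPM in WT, 2.46 and 2.13 in STAT3ko, and 0.751 and 1.22 in STAT3ko PD-1ko, which rest on 17 to 57 counts a library. The STAT3ko CD8 libraries stood above the WT ones and the STAT3ko PD-1ko ones, without overlap. Neither difference passed adjustment (log2 fold change 0.95, SE 0.37, adjusted p = 0.421 against WT, and -1.19, SE 0.38, adjusted p = 0.0689 for STAT3ko PD-1ko against STAT3ko, edgeR). The second was called at an adjusted p of 0.048 when all genes with at least 1 count were kept. Il6st measured 47.0 and 71.6 CPM in WT, 70.7 and 101 in STAT3ko, and 48.4 and 62.0 in STAT3ko PD-1ko CD4 T cells. Il6st in CD8 T cells measured 58.5 and 88.3, 67.1 and 104, and 46.1 and 70.6 CPM in the same order of genotypes. Replicate 2 was above replicate 1 in each of the 6 groups, by 0.36 to 0.64 on the log2 scale, and the genotypes overlapped except for STAT3ko PD-1ko below STAT3ko in CD4 T cells. Between libraries of the same number, Il6st in STAT3ko PD-1ko differed from STAT3ko by -0.55 and -0.70 on the log2 scale in CD4 and by -0.54 and -0.56 in CD8 T cells, and neither subset passed adjustment in the edgeR fit without a replicate block (adjusted p = 0.177 and 0.25). With the replicate number as a block Il6st was called lower in both (adjusted p = 0.012 and 0.015, edgeR). Those fits called 3105 genes in all in CD4 and 2932 in CD8 T cells, against 1324 and 2017 without the block. The study's supplement speaks of 2 batches in its TCR sequencing methods. No source used here says that the replicate number marks them in the RNA-Seq libraries. Per length, the level of Il6st was 2.98 to 5.54 times that of Il6ra in CD4 libraries and 16.9 to 54.8 times in CD8 libraries.

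Il27ra (chr8:84030286-84042575, minus strand) encodes the chain that pairs with gp130 to receive IL-27. It measured 175 and 149 CPM in WT CD4 T cells, 138 and 161 in STAT3ko, and 78.9 and 61.2 in STAT3ko PD-1ko. In CD8 T cells it measured 104 and 97.0 CPM in WT, 85.5 and 100.4 in STAT3ko, and 56.6 and 50.1 in STAT3ko PD-1ko. In both subsets the STAT3ko PD-1ko libraries lay below all 4 others, while WT and STAT3ko overlapped. Il27ra fell by 1.19 on the log2 scale against WT (SE 0.18, adjusted p = 0.00893) and by 1.07 against STAT3ko (SE 0.18, adjusted p = 0.0158) in CD4 T cells. In CD8 T cells it fell by 0.91 against WT (SE 0.13, adjusted p = 0.00849) and by 0.79 against STAT3ko (SE 0.13, adjusted p = 0.0129). Without STAT3ko PD-1ko replicate 1 the adjusted p in CD4 T cells was 0.060 against WT and 0.061 against STAT3ko, and without its replicate 2 it was 0.092 and 0.163. Il27ra in CD8 T cells had an adjusted p without STAT3ko PD-1ko replicate 2 of 0.072 against WT and 0.098 against STAT3ko, and without STAT3ko replicate 2 of 0.073 against STAT3ko. Palm3 overlaps Il27ra on the opposite strand and had 4 to 27 counts a library.

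The IL-10 receptor is made of Il10ra (chr9:45253837-45269149, minus strand), which binds IL-10, and Il10rb (chr16:91406235-91425834, plus strand), which is shared with the receptors for IL-22 and the type III interferons. Il10ra measured 116 and 197 CPM in WT CD4 T cells, 187 and 347 in STAT3ko, and 158 and 156 in STAT3ko PD-1ko. The CD8 libraries gave 91.6 and 161 CPM in WT, 133 and 267 in STAT3ko, and 146 and 126 in STAT3ko PD-1ko. Replicates differed widely in WT and STAT3ko, where replicate 2 was higher by 0.76 to 1.01 on the log2 scale, and little in STAT3ko PD-1ko, by -0.01 between the CD4 and -0.21 between the CD8 pools. The log2 fold change of STAT3ko against WT was 0.78 in CD4 T cells (SE 0.34, adjusted p = 0.480, edgeR) with overlapping libraries, and 0.66 in CD8 T cells (adjusted p = 0.580). With 1 library left out, these values ran from 0.25 to 1.2 in CD4 and from 0.06 to 1.13 in CD8 T cells. STAT3ko PD-1ko CD4 libraries lay below the STAT3ko ones for Il10ra without overlap (log2 fold change -0.75, SE 0.34), which did not pass adjustment in the fit without a replicate block (adjusted p = 0.184, edgeR) but did without STAT3ko CD4 replicate 1 (log2 -1.14, adjusted p = 0.030) and with the block (adjusted p = 0.049). Without STAT3ko CD4 replicate 2 the fold change shrank to -0.22 (adjusted p = 0.688). Il10rb in CD8 T cells measured 60.3 and 68.0 CPM in WT, 63.0 and 81.8 in STAT3ko, and 50.1 and 35.1 in STAT3ko PD-1ko. The STAT3ko PD-1ko libraries were the lowest 2 of the 6. Il10rb fell by 0.76 on the log2 scale against STAT3ko (SE 0.21, adjusted p = 0.0464), and its log2 fold change against WT was -0.58 (SE 0.21, adjusted p = 0.0924, edgeR), which DESeq2 (adjusted p = 0.039) and edgeR on all genes with at least 1 count (0.047) called. The call against STAT3ko was lost without STAT3ko replicate 2 (adjusted p = 0.205), without STAT3ko PD-1ko replicate 2 (0.208), with library totals in place of TMM (0.074), and on log2(RPKM + 1) (0.064). In CD4 T cells Il10rb lay between 32.0 and 47.1 CPM and no genotype comparison called it.

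The IL-12 receptor joins Il12rb1 (chr8:70808449-70821423, plus strand), which binds the p40 subunit of IL-12 and IL-23, to Il12rb2 (chr6:67292018-67376188, minus strand), which activates STAT4 in response to IL-12. Il12rb2 in CD8 T cells measured 168 and 157 CPM in WT, 198 and 201 in STAT3ko, and 233 and 207 in STAT3ko PD-1ko. The 3 genotypes did not overlap and followed that order. Il12rb2 rose by 0.45 on the log2 scale in STAT3ko PD-1ko against WT (SE 0.11, adjusted p = 0.034), while the log2 fold change of STAT3ko against WT was 0.30 (SE 0.11, adjusted p = 0.403, edgeR). The rise was no longer called when any 1 of the 6 CD8 libraries was left out (adjusted p 0.062 to 0.193) or when only the 4 libraries compared were fitted (0.059). In CD4 T cells Il12rb2 measured 324 and 325 CPM in WT, 301 and 314 in STAT3ko, and 322 and 253 in STAT3ko PD-1ko, with a log2 fold change of STAT3ko PD-1ko against WT of -0.16. Il12rb1 measured 193 and 201 CPM in WT, 138 and 176 in STAT3ko, and 139.6 and 128 in STAT3ko PD-1ko CD4 T cells. Both mutant genotypes lay below WT there, but the log2 fold change of -0.54 in STAT3ko PD-1ko did not pass adjustment (SE 0.17, adjusted p = 0.0773, edgeR), while it did in DESeq2 (adjusted p = 0.025), with only the 4 libraries compared (0.043), with a replicate block (0.026), and without STAT3ko replicate 1 (0.048) or replicate 2 (0.0499). In CD8 T cells Il12rb1 lay between 95.7 and 117 CPM in all 6 libraries. The ratio of Il12rb2 to Il12rb1 per length was 1.56 and 1.50 in WT, 2.03 and 1.65 in STAT3ko, and 2.14 and 1.84 in STAT3ko PD-1ko CD4 T cells. The CD8 ratios were 1.33 and 1.29, 1.76 and 1.64, and 2.07 and 2.01 in the same order, so that the WT libraries had the lowest ratio in both subsets. These ratios are a description and were not tested.

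The kinases Jak1, Jak2, and Tyk2 serve these chains. Jak1 (chr4:101151974-101265282, minus strand) works with gp130, the IL-10 receptor, and many other receptors including those of the common gamma chain and the interferons, Jak2 (chr19:29251803-29313092, plus strand) works with Il12rb2 and gp130, and Tyk2 (chr9:21104068-21131275, minus strand) works with Il12rb1 and Il10rb. Jak1 measured 1301 and 1268 CPM in WT CD4 T cells, 1289.6 and 1287 in STAT3ko, and 832 and 868 in STAT3ko PD-1ko. Jak1 in CD8 T cells measured 1258 and 1099 CPM in WT, 1274 and 1247 in STAT3ko, and 721 and 707 in STAT3ko PD-1ko. The STAT3ko PD-1ko libraries lay far below the rest, and WT and STAT3ko CD4 T cells differed by 0.01 on the log2 scale. Jak1 fell by 0.57 on the log2 scale against WT (SE 0.12, adjusted p = 0.0234) and by 0.58 against STAT3ko (SE 0.12, adjusted p = 0.0275) in CD4 T cells, and by 0.71 against WT (SE 0.10, adjusted p = 0.0074) and by 0.81 against STAT3ko (SE 0.10, adjusted p = 0.0059) in CD8 T cells. In CD4 T cells the call was lost without any 1 of the 4 libraries compared (adjusted p 0.089 to 0.136 against WT, and 0.055 to 0.181 against STAT3ko), and in CD8 T cells without STAT3ko PD-1ko replicate 2 (0.072 in both comparisons). Raver2 overlaps Jak1 on the opposite strand and had 48 to 489 counts a library.

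Jak2 measured 520.4 and 529.5 CPM in WT CD4 T cells, 520.4 and 463 in STAT3ko, and 396 and 464 in STAT3ko PD-1ko. The CD8 values were 307 and 292 CPM, 307 and 303, and 243 and 272. The STAT3ko PD-1ko CD8 libraries were the lowest, and no comparison between genotypes called Jak2. Tyk2 measured 169 and 198 CPM in WT, 203 and 232 in STAT3ko, and 166 and 144 in STAT3ko PD-1ko CD4 T cells, and 135 and 136, 149.9 and 157, and 124 and 112 in CD8 T cells. Its STAT3ko libraries were the highest of each subset. The log2 fold change of STAT3ko PD-1ko against STAT3ko was -0.47 in CD4 (adjusted p = 0.107) and -0.37 in CD8 T cells (adjusted p = 0.0611), neither called by edgeR without a replicate block, while the fit with the block called both (adjusted p = 0.042 and 0.043) and DESeq2 called Tyk2 in CD8 T cells (adjusted p = 0.015). Per length, the ratio of Jak1 to Jak2 was 2.29 to 2.66 in WT and STAT3ko CD4 libraries and 2.01 and 1.79 in STAT3ko PD-1ko ones. The same ratio was 3.60 to 3.97 in WT and STAT3ko CD8 libraries and 2.84 and 2.48 in STAT3ko PD-1ko.

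As compared with WT, STAT3ko PD-1ko CD4 T cells had 2 of 10 members lower, Il27ra and Jak1, where 12.9% of all genes tested were called and 5.65% were called lower. STAT3ko PD-1ko CD4 T cells had the same 2 members lower than STAT3ko CD4 T cells, where 11.1% of genes were called and 5.03% were lower. With a replicate block 3 members were lower than in WT and 5 lower than in STAT3ko. Of all 11959 genes tested, these fits called 3104 and 3105, with 1458 and 1525 lower. Over the 10 members the median log2 fold change was -0.24 against WT and -0.40 against STAT3ko, with -0.01 over all genes in both. As compared with WT, STAT3ko PD-1ko CD8 T cells had 2 members lower, Il27ra and Jak1, and 1 higher, Il12rb2, where 17.2% of genes were called, 8.21% lower and 9.01% higher. Against STAT3ko, 3 members were lower in CD8 T cells, Il27ra, Il10rb, and Jak1, where 16.8% of genes were called and 8.05% were lower. With a replicate block 5 members were lower there, where 2932 of 12002 genes were called and 1434 were lower. The members' median was -0.23 against WT and -0.55 against STAT3ko, with 0.00 over all genes. Without STAT3ko PD-1ko CD4 replicate 1 the log2 fold change against WT was -1.37 for Il27ra and -0.53 for Jak1, and without replicate 2 -1.03 and -0.62. Without STAT3ko PD-1ko CD8 replicate 2 the values were -0.83 and -0.71. A group left with 1 library has no spread of its own. In these fits the members lost their calls against WT and STAT3ko, and so did most other genes. With library totals in place of TMM, 1458 genes were higher and 792 lower in STAT3ko PD-1ko than in WT CD8 T cells, against 1081 and 985 with TMM, and 1456 were higher and 718 lower than in STAT3ko, against 1051 and 966. In CD4 T cells the same change gave 946 genes higher and 489 lower than in STAT3ko, against 723 and 601. The calls of Il27ra and Jak1 held under both scalings.

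Between STAT3ko and WT, 0 of 10 members were called by edgeR in either subset, where 0.334% of genes were called in CD4 and 0.0583% in CD8 T cells. Stat3, the deleted gene, was not called in these fits either, so a member without a call is not shown to be unchanged. With a replicate block 303 genes were called in CD4 and 9 in CD8 T cells, against 40 and 7 without it. The blocked fits also called 0 members. At an unadjusted p under 0.05 there were 0 members in CD4 and 2 in CD8 T cells, Il6ra and Il12rb2, and DESeq2 called 0 in both, among 271 and 210 genes in all. Of all genes tested, 10.5% in CD4 (1259 of 11959) and 11% in CD8 T cells (1315 of 12002) were under that unadjusted p. Over the members the median log2 fold change was -0.03 in CD4 T cells and 0.17 in CD8 T cells. The STAT3ko PD-1ko comparisons with WT and with STAT3ko share the STAT3ko PD-1ko libraries, so that a low value in those libraries enters both.

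**Figure D3:**
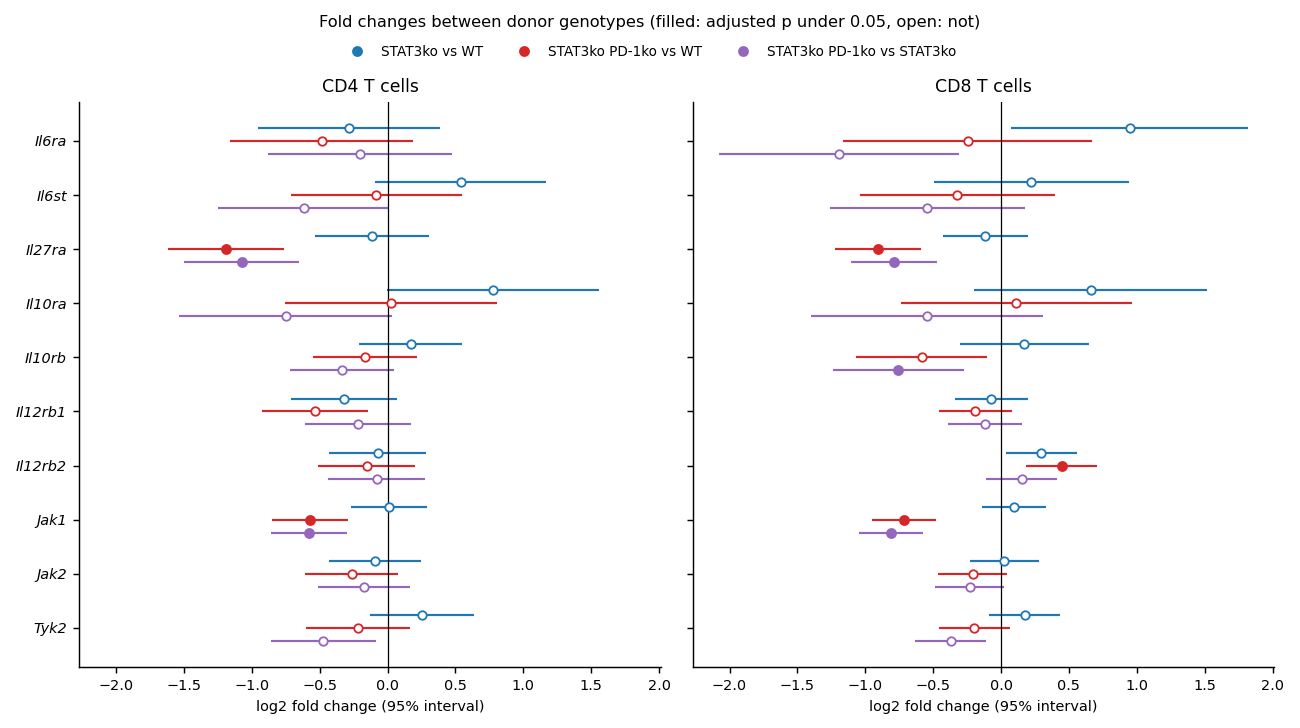
Log2 fold change of each gene (x axis) in the 3 comparisons between genotypes, with CD4 and CD8 T cells in separate panels, points at the fitted value, bars for the 95% interval, and filled points for an adjusted p under 0.05. Il27ra and Jak1 are filled in both comparisons with STAT3ko PD-1ko in both panels, and Il12rb2 and Il10rb are each filled once, in CD8 T cells.

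The subsets were then compared over the 3 genotypes. Of the 10 members, 6 were lower in CD8 than in CD4 T cells and 1 was higher, where 25.5% of genes were called, 12.6% lower and 12.9% higher. Il6ra had the largest difference, with a mean of 1.49 CPM in CD8 against 9.98 in CD4 T cells over 6 libraries each (log2 difference -2.82, SE 0.19, adjusted p = 4.31e-06). Jak2 was lower by 0.75 on the log2 scale, at 287.5 against 482 CPM, and Il12rb2 by 0.67, at 194 against 306 CPM. Il6ra, Jak2, Il12rb2, and Il12rb1 did not overlap between the subsets over all 12 libraries. Il12rb1 was lower by 0.57 (108 against 163 CPM), Il27ra by 0.59 (82.3 against 127 CPM), and Tyk2 by 0.45 (135.5 against 185 CPM). Adjusted p was 3.72e-05 for Jak2, 0.000139 for Il12rb2, 0.000474 for Il12rb1, 0.00113 for Il27ra, and 0.00182 for Tyk2. Il10rb went the other way, with 59.7 CPM in CD8 against 40.2 in CD4 T cells (log2 difference 0.54, SE 0.11, adjusted p = 0.00503).

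CD4 and CD8 T cells with the same genotype and replicate number deviated together, so the difference was also taken within each of these 6 pairs, and the study took both subsets from the same livers. Il6ra was lower in CD8 T cells in 6 of 6 pairs, with log2 differences of -3.78 to -1.68, and Jak2 in 6 of 6 pairs, at -0.86 to -0.61. Il10rb was higher in 6 of 6 pairs, by 0.13 to 0.80. Il6st differed by -0.07 to 0.32 and was lower in 2 pairs and higher in 4. With a block for the pair, 2 further genes were called lower in CD8 T cells, Il10ra (log2 difference -0.32, adjusted p = 0.000911, against 0.369 without the block) and Jak1 (-0.14, adjusted p = 0.0417, against 0.106), and both were lower in 6 of 6 pairs. This fit called more genes in all, 45.3% of the 12334 tested, where the fit without the block called 25.5%, and 23% lower (2842 genes, against 1551 without it).

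**Figure D4:**
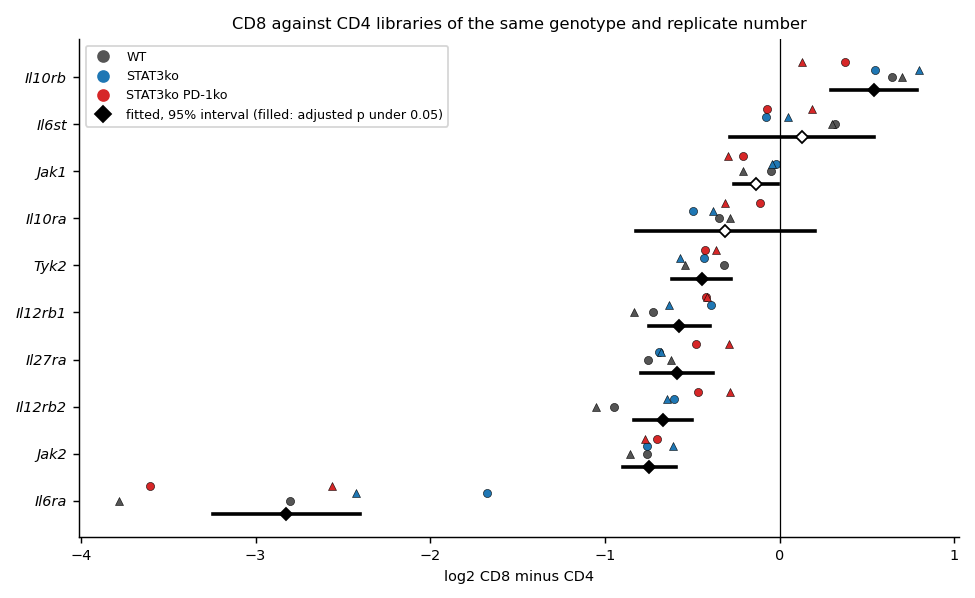
Log2 difference of CD8 minus CD4 T cells (x axis) for each gene, with a small point for each of 6 pairs of same-numbered libraries (colored by genotype) and a diamond with its 95% interval for the difference fitted over the 3 genotypes. Il6ra lies farthest to the left at -2.82, Il10rb lies at 0.54, and Il6st straddles 0.

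Whether a genotype acted differently in the 2 subsets was tested directly. By edgeR, 0 of 10 members were called for STAT3ko against WT, where 0% of genes were called, and 0 of 10 for STAT3ko PD-1ko against WT, where 0.00811% were called. DESeq2 called 0 members in each, among 5 and 76 of 12334 genes in all, and at an unadjusted p under 0.05 there was 1 member in each, beside 1.85% and 4.43% of all genes tested. For STAT3ko against WT it was Il6ra, with a difference of 1.24 between subsets (SE 0.44, adjusted p = 1, edgeR). For STAT3ko PD-1ko against WT it was Il12rb2, with a difference of 0.62 (SE 0.18, adjusted p = 0.499, edgeR). The difference of CD8 minus CD4 T cells for Il12rb2 was -0.95 and -1.05 in the WT pairs, -0.60 and -0.64 in the STAT3ko pairs, and -0.47 and -0.29 in the STAT3ko PD-1ko pairs. For Il27ra and Jak1, whose falls were called in both subsets, the difference between subsets was 0.30 (95% interval -0.21 to 0.80) and -0.13 (95% interval -0.43 to 0.18).

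The other genes of these pathways were taken as 5 lists, of cytokines, other receptors and kinases, STATs, inhibitors, and genes downstream. Over all genes tested, 5.65% were lower and 7.21% higher in STAT3ko PD-1ko than in WT CD4 T cells, and 8.21% were lower and 9.01% higher in CD8 T cells. Of 20 cytokine genes listed, 8 were tested in CD4 and 6 in CD8 T cells. As compared with WT, STAT3ko PD-1ko CD4 T cells had 2 cytokine genes lower and 0 higher, with a median of -0.20. Lif, a gp130 cytokine, fell from a mean of 17.4 to 2.76 CPM (log2 -2.64, SE 0.64, adjusted p = 0.0375), and Clcf1, which acts through gp130 and the CNTF receptor, fell from 17.7 to 5.80 CPM (adjusted p = 0.0064). Lif had 303 to 484 counts in WT, 48 to 176 in STAT3ko, and 43 to 88 in STAT3ko PD-1ko CD4 libraries, so the mutant genotypes overlapped. Clcf1 had 398 to 408, 253 to 288, and 123 to 158 in the same order. In CD8 libraries Lif had 57 to 98, 14 to 15, and 33 to 40. No cytokine gene was called in STAT3ko against WT. Among the cytokine genes 1 rose and 1 fell in CD8 T cells, with a median of -0.50. Ebi3, the subunit shared by IL-27 and IL-35, had 9 to 12 counts in WT and 76 to 115 in STAT3ko PD-1ko CD8 libraries, or 0.447 and 4.03 CPM (log2 3.18, SE 0.39, adjusted p = 0.0051), and Clcf1 fell by 1.85 (adjusted p = 0.0051). Il12b, Il20, and Il24 had 0 counts in all 12 libraries, whereas Il10 had 299 to 3294 and Ifng 2827 to 10619 counts.

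Of 16 other receptor and kinase genes, 7 were tested in each subset and none rose in STAT3ko PD-1ko against WT. In CD4 T cells 2 fell, with a median of -0.64. They were Ifngr1, the ligand-binding chain of the interferon gamma receptor (log2 -0.73, adjusted p = 0.0241), and Jak3, the kinase of the common gamma chain (log2 -0.84, adjusted p = 0.0478). In CD8 T cells 3 fell, with a median of -0.50, namely Ifnar2, a chain of the type I interferon receptor (log2 -0.91, adjusted p = 0.0095), Jak3 (log2 -0.84, adjusted p = 0.0076), and Ifngr1 (log2 -0.50, adjusted p = 0.0264). Of the 7 STAT genes, Stat3, the deleted gene, was the only one called in STAT3ko PD-1ko against WT in either subset. In STAT3ko PD-1ko against STAT3ko, 0 STAT genes were called in CD4 and 1 was lower in CD8 T cells, where 8.05% of all genes were lower. Of 20 inhibitors and sheddases, 4 fell and 0 rose in STAT3ko PD-1ko against WT in CD4 T cells, with a median of -0.20. Cish, a STAT5 target that inhibits cytokine signaling, fell from 174 to 62.2 CPM (log2 -1.46, adjusted p = 0.0077), and the others were Sh2b3 (-1.34), Socs1 (-0.79), and Socs2 (-0.76). Of the inhibitors 3 fell in CD8 T cells, Cish (-1.25), Socs1 (-0.77), and Ptpn1 (-0.40), with a median of -0.17.

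Of 20 downstream genes, 19 were tested. In STAT3ko PD-1ko against WT CD4 T cells 10 fell and 2 rose, with a median of -1.0, and in CD8 T cells 10 fell and 0 rose, with a median of -1.02. Eomes, a T-box factor of effector and memory cells, rose by 1.40 on the log2 scale (adjusted p = 0.0158) and Irf8 rose by 1.10 (adjusted p = 0.0117) in CD4 T cells. In CD8 T cells Eomes went the other way, with 681 to 743 counts in WT and 459 to 535 in STAT3ko PD-1ko libraries. Bcl6, the factor of follicular helper cells, fell by 2.20 (adjusted p = 0.0084) in CD4 T cells, and Maf, a factor for IL-10 and IL-21 expression, fell by 2.30 in CD8 T cells (adjusted p = 0.0023). Il17a, the Th17 cytokine, had 36 to 51 counts in WT, 0 in both STAT3ko, and 0 to 2 in STAT3ko PD-1ko CD4 libraries. In STAT3ko against WT, 2 of the 19 were lower in CD4 and 0 in CD8 T cells, where 0.184% and 0.0417% of all genes were lower. Hlx, a homeobox factor, was 1 of the 2 (adjusted p = 0.0413, edgeR), with 25 to 38 counts in WT and 1 to 2 in STAT3ko CD4 libraries. In STAT3ko PD-1ko against STAT3ko, 5 of the 19 fell and 2 rose in CD4, and 3 fell and 1 rose in CD8 T cells. Of all genes, 5.03% fell and 6.05% rose there in CD4, and 8.05% and 8.76% in CD8 T cells. The lists were chosen with results of these data known, so the counts describe them and do not set them apart from other genes.

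**Figure D5:**
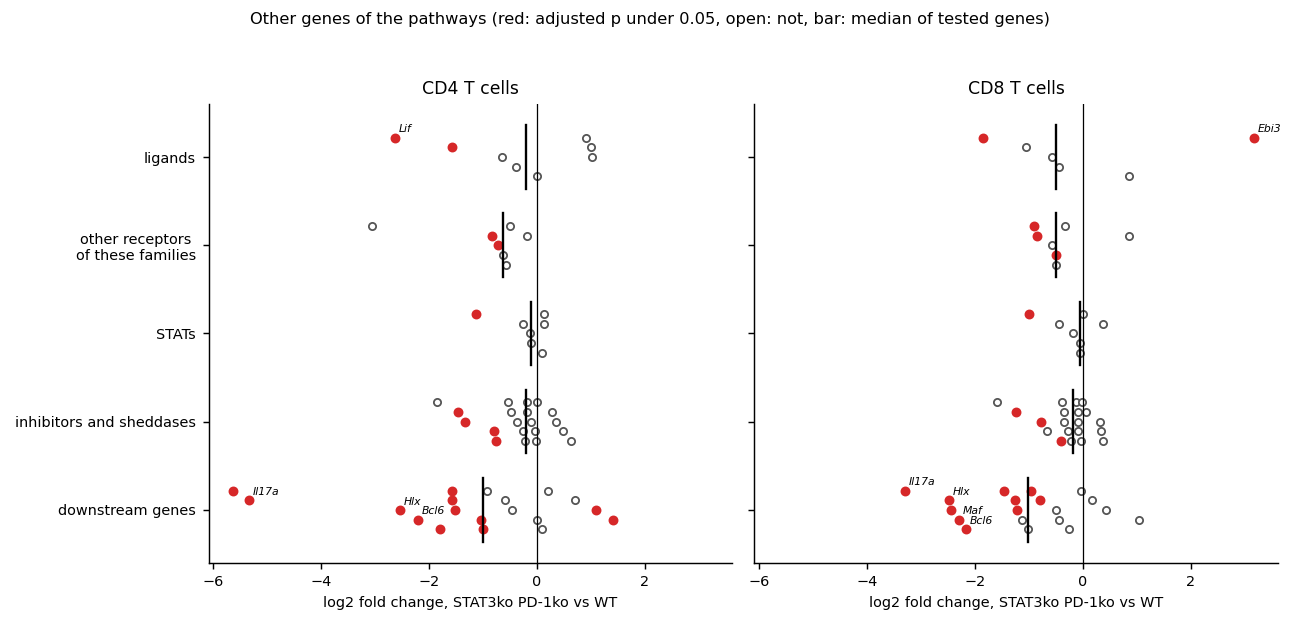
Log2 fold change of STAT3ko PD-1ko against WT (x axis) for each tested gene of the 5 pathway lists, in CD4 and CD8 T cells, with red points for an adjusted p under 0.05, a bar at the median of each list, and names at some called genes. The downstream genes lie lowest, with medians of -1.0 and -1.02, and the lowest points, among them Il17a and Hlx, rest on few counts in STAT3ko PD-1ko.

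Markers of T cell states and of other cells also differed between genotypes, beside 5.65% of all genes lower in CD4 and 8.21% in CD8 T cells for STAT3ko PD-1ko against WT. Of 8 genes of naive and central memory T cells, 5 fell in STAT3ko PD-1ko against WT CD4 T cells, among them Tcf7, a transcription factor of naive and memory T cells (log2 -2.89, adjusted p = 0.0021). Their summed level was 2288 to 2403 CPM in WT and 1072 to 1302 CPM in STAT3ko PD-1ko CD4 libraries, and none was at 0 in any library. In CD8 T cells 3 fell, and the sum was 1088 to 1148 CPM in WT and 706 to 824 CPM in STAT3ko PD-1ko. Il7r was the most abundant of the list except in 2 CD8 libraries, where S1pr1 was. Of 8 T cell genes, 1 fell in CD4 T cells, Cd4 itself (log2 -0.52, adjusted p = 0.0375), and 5 fell in CD8 T cells, among them Cd8a (log2 -1.09, adjusted p = 0.0041). Their sum went from 5229 to 5537 CPM in WT to 4037 to 4241 in STAT3ko PD-1ko CD4 libraries, and from 5586 to 5747 to 3610 to 3635 in CD8 libraries. Of 6 regulatory T cell genes, 2 fell in CD4 T cells, Foxp3 (log2 -2.91, adjusted p = 0.0040) and Ikzf2 (log2 -1.11), and Foxp3 fell in CD8 T cells (log2 -1.19). Their sum, led by Ctla4 and with no gene at 0, was 995 to 1815 CPM in WT and 925 to 1161 in STAT3ko PD-1ko CD4 libraries, which overlap. Against STAT3ko, 4 naive and central memory genes, 0 T cell genes, and 2 regulatory T cell genes were lower in CD4 T cells, and 2, 4, and 1 were lower in CD8 T cells, with 1 regulatory T cell gene higher in each subset. Of all genes, 5.03% in CD4 and 8.05% in CD8 T cells were lower than in STAT3ko. The part of these lists in the fall of Il27ra and Jak1 was not tested.

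Of 12 macrophage and monocyte genes, 9 were tested in each subset in STAT3ko PD-1ko against WT, and 1 was called lower in CD4 (median log2 -2.27) and 2 in CD8 T cells (median -2.48). Itgam fell by 2.41 in CD4 (adjusted p = 0.0040) and fell by 3.21 in CD8 T cells (adjusted p = 0.0009), and Cd68 fell by 0.71 in CD8 T cells (adjusted p = 0.0154). Against STAT3ko, 1 macrophage and monocyte gene was lower in CD4 (median log2 -2.13) and 2 in CD8 T cells (median -1.92). Of all genes, 5.03% in CD4 and 8.05% in CD8 T cells were lower in that comparison. The summed level of the list was 57.8 to 75.1 CPM in WT and 19.1 to 21.8 in STAT3ko PD-1ko CD4 libraries, and 98.7 to 106 against 25.7 to 25.8 in CD8 libraries. This sum was led by Itgam (159 to 1709 counts a library) and Cd68 (126 to 723), and no other gene of the list had more than 49 counts. The defining genes of liver macrophages were near 0 in every library, with 1 to 49 counts of C1qa, 1 to 31 of Csf1r, 0 to 14 of Adgre1, and 1 to 39 of Clec4f. Hepatocyte genes summed to 0.800 to 2.82 CPM, neutrophil genes to 0.0863 to 1.35, and dendritic cell genes to 0.123 to 1.71. B cell genes summed to 1.63 to 14.7 CPM, led by Cd79b, with Ms4a1 at 0 in all 12 libraries. In CD8 T cells their sum was 10.7 to 14.7 CPM in WT, 12.6 to 13.8 in STAT3ko, and 5.30 to 6.10 in STAT3ko PD-1ko. Cd79b, a chain of the B cell receptor complex and the only gene of the list tested, fell there by 1.18 on the log2 scale against WT (adjusted p = 0.0149) and by 1.23 against STAT3ko (adjusted p = 0.0143), the comparisons that called Il27ra and Jak1. Endothelial genes summed to 110.4 to 198 CPM, nearly all from Pecam1, which T cells also express, and erythroid genes to 0.0399 to 0.736 CPM. Of 6 NK cell genes, led by Nkg7, which cytotoxic T cells also express, 2 rose in CD4 and 3 fell in CD8 T cells in STAT3ko PD-1ko against WT, with Ncr1 at 0 to 9 counts. Against STAT3ko, 1 NK cell gene rose and 1 fell in CD4, and 3 fell in CD8 T cells. These sums cover all 12 libraries where no group is named, and the part of macrophage, B cell, and NK cell genes in the results was not tested.

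How far the members moved together was described over the 12 libraries by Pearson's r of log2 CPM. Libraries share genotype, subset, and pool, so that r is given with no p. Il27ra and Jak1 had r = 0.874 over 12 libraries, 0.954 over the 6 CD4, and 0.949 over the 6 CD8 libraries. Il10rb and Tyk2 had r = -0.089 over 12 libraries but 0.975 within CD4 and 0.935 within CD8 T cells, and in CD8 T cells Il10rb was the higher and Tyk2 the lower. Il6ra and Jak2 had r = 0.948 over 12 libraries, 0.220 within CD4, and 0.787 within CD8 T cells. Among the 8599 genes that averaged at least 3 on the log2 CPM scale, those most like Il27ra were Traf1 (r = 0.988), Hs3st3b1 (0.988), Tspan14 (0.983), Kmt5b (0.980), and Slc9a9 (0.979). Those most like Il6ra were Ccr9 (r = 0.976), Tmub1 (0.964), Gpr155 (0.962), Cd5 (0.961), and 6530402F18Rik (0.959).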

How the data were processed

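RNA-Seq covered 12 libraries of donor T cells, 2 for each of 6 groups set by the labels. The authors aligned reads to mm10 with STAR (v2.7) and assigned them to RefSeq genes with HTSeq-count (v0.11), and the counts they deposited carry no normalization. The RPKM values the authors deposited are counts over exon length and over a library size, which was 0.942 to 1.02 times the total. Both tables also give position, strand, and exon length. The strand setting of the counting was not given in the sources used here. The labels also carry a protocol for adipocyte differentiation of a cell line and another library kit, which conflict with the study's methods for sorted T cells and were not used.

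The filter was filterByExpr with a minimum count of 10 and a minimum total of 15, followed by TMM scaling and the quasi-likelihood test of edgeR (4.0.16, in R 4.3.3) with Benjamini-Hochberg adjustment over all genes kept. Each subset was fitted on its 6 libraries, and CD8 against CD4 T cells and the interactions were fitted on 12 libraries. Counting error is small beside the spread between pools (biological coefficient of variation 0.189 in CD4 and 0.169 in CD8 T cells). Alternatives used DESeq2 (1.42.0), other filters, only the libraries compared, a replicate block, library totals, limma (3.58.1) on log2(RPKM + 1) and log2(RPKM + 0.1) with a mean RPKM of at least 1, and each library left out in turn. The study took CD4 and CD8 T cells from the same livers, and libraries with the same genotype and replicate number deviated together (r = 0.545 in WT, 0.539 in STAT3ko, and 0.580 in STAT3ko PD-1ko over 12334 genes), and a fit with these pairs as a block is given where it changed a call.

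The members, lists, and tests were chosen with earlier results of these data known. Named genes are the members, Stat3 and Pdcd1, up to 4 called genes of each pathway list and comparison with the largest change, and the 5 genes most like each of the 2 members with the widest range. The genes with 0 counts, Il10, Ifng, Eomes, Irf8, and the markers named were chosen after their values were seen. Some genes of the lists are counted but not reported here by name.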

Additional observations from a re-analysis of the deposited data

How the results depend on the processing

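No member changed direction of a call under any alternative run. Of the fits other than leaving out a library, 603 single-gene results kept their side of the threshold, 14 gained it, and 7 lost it, and of the leave-one-out fits 692 kept it, 3 gained it, and 25 lost it. On log2(RPKM + 0.1) with limma, 1 member was called in STAT3ko PD-1ko against WT and 1 against STAT3ko in CD4 T cells, Il27ra in both, among 978 and 766 genes in all, against 1538 and 1324 in the main test, and Jak1 missed the threshold (adjusted p = 0.054 and 0.060), as did Il12rb2 against WT (0.059) and Il10rb against STAT3ko (0.079) in CD8 T cells. With a replicate block, 5 members were called lower in STAT3ko PD-1ko against STAT3ko in CD4 T cells, which added Il6st, Il10ra, and Tyk2, beside 1525 of 11959 genes lower in all. In CD8 T cells 5 were called lower, which added Il6st and Tyk2, beside 1434 of 12002 genes. Same-numbered libraries correlated at 0.561, 0.268, and 0.184 between the CD4 genotypes and at 0.593, 0.138, and 0.068 between the CD8 genotypes. The number may therefore mark a shared effect, above all between WT and STAT3ko, which the main fits ignore. What it marks is not stated for these libraries, so members whose call the block changed are given both ways. The block moved genes called from 1538 to 3104 in STAT3ko PD-1ko against WT and from 1324 to 3105 against STAT3ko in CD4 T cells. In CD8 T cells it moved them from 2066 to 2965 and from 2017 to 2932. For STAT3ko against WT it moved them from 40 to 303 in CD4 and from 7 to 9 in CD8 T cells. Apart from Il6st, Il10ra, and Tyk2 against STAT3ko, Il12rb1 against WT in CD4, and the pair-blocked Il10ra and Jak1 between subsets, the block changed no member's call. Leaving out 1 library gave 0 to 3 members in STAT3ko PD-1ko against WT and 0 to 2 against STAT3ko in CD4 T cells, 0 to 2 and 0 to 3 in CD8 T cells, 7 in CD8 against CD4 T cells, and 0 in the other comparisons. The genes called in these fits numbered 62 to 1947 against WT and 0 to 1212 against STAT3ko in CD4 T cells, 111 to 1908 and 2 to 1878 in CD8 T cells, 1 to 49 and 0 to 2 in STAT3ko against WT, and 1 to 9 in the interaction of STAT3ko PD-1ko. Between CD8 and CD4 T cells the fits with 1 library left out called 2401 to 3217 genes in all, against 3145 in the main test. Fits with a library left out have fewer libraries, and a lone library of a group is assumed to vary like the others. For STAT3ko against WT, DESeq2 called 271 genes in CD4 and 210 in CD8 T cells and the main test 40 and 7, with 0 members in each. The cause of these differences between tools was not tested. The spread between 2 pools, more than the depth, limits the comparisons, except for Il6ra in CD8 T cells at 17 to 57 counts.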

Other observations

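Gene groups outside the comparisons above also differed between the 2 replicates of a genotype. The summed level of the cytokine list, led by Ifng, was higher in replicate 1 than in replicate 2 of each of the 6 groups, at 654 against 344 CPM in WT CD4 T cells. The regulatory T cell list, led by Ctla4, was also higher in replicate 1 of each group, at 1815 against 995 CPM in WT CD4 T cells. Il6st was higher in replicate 2 of each group.

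Between subsets, 7 of 20 inhibitors of cytokine signaling were called lower in CD8 than in CD4 T cells by edgeR and 0 higher, where 12.6% of all genes tested were called lower and 12.9% higher. They included Cish (log2 -1.13), Socs2 (-1.0), Socs5 (-0.97), and Sh2b3 (-0.65). Of 9 cytokine genes tested between subsets, 3 were lower in CD8 T cells, Il6, Lif (log2 -2.11), and Ebi3 (log2 -3.81), and 0 were higher, beside the same shares of all genes. The call of Il6 rests on few counts, 4 to 21 in CD4 and 0 to 4 in CD8 libraries. Of 8 other receptor and kinase genes, Ifnar2 was the only one called, at 0.48. Of the naive and central memory list 6 of 8 genes were lower in CD8 T cells, also beside 12.6% of all genes, and their part in these differences was not tested.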
